A study of Mus musculus with 6 samples.

Results

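The 10 genes described here encode receptors, ligands and target genes of the Notch pathway. The receptors are Notch1, Notch2 and Notch3, the ligands Jag1, Jag2 and Dll1, and the targets the repressor genes Hes1, Hes5, Hey1 and Heyl. They were chosen by gene symbol, and all 10 had a named probe set among the 16331 non-control probe sets of the array. Affymetrix arrays were hybridised with RNA of dissected mouse skin, 3 samples from Hoxc13 mutants and 3 from wild type animals. Mutant animals carried the targeted knockout allele Hoxc13tm1Mrc, whose zygosity the labels do not state, and all 6 samples were labelled C57BL/6, male and 5 dpn. Hoxc13 encodes a homeodomain protein needed for normal hair, and the comparison asks which skin transcripts differ when it is altered. The tissue was whole skin, so each value sums over all its cell types, and fewer cells of a type cannot be told apart from less RNA per cell.

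Notch signalling passes between touching cells. A Jagged or Delta-like ligand on a cell binds a Notch receptor on its neighbour, the receptor is cut by an Adam protease and by gamma-secretase, and its intracellular part enters the nucleus. There it joins the DNA-binding protein Rbpj and a Mastermind coactivator and turns on Hes and Hey genes, whose products repress transcription with the help of Groucho (Tle) corepressors. In skin the pathway is known for promoting the spinous fate of keratinocytes leaving the basal layer and for the maintenance of hair follicle layers. Notch3 and Heyl are also known from the mural cells of blood vessels.

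The DNA element that Rbpj reads was looked up in the RefSeq promoter sequences of GRCm38.p6, as a description of sequence. The motif searched was GTGGGAA on either strand (TTCCCAC on the other) in the 250 bases before each gene start. It was present in 5.42% of all 32851 promoters. Of the members, 7 had an entry, with 8 promoters, and the motif occurred in that of Hes5 alone, in 2 copies. Hes1, Hey1 and Heyl had no entry. Hes5 was thus the only target member examined, so the lookup cannot show what sets a direct target apart. The Hes5 stretch lies at chr4:154960673-154960922 on the plus strand and is shown 5′ to 3′, with the motif in capitals.
Hes5: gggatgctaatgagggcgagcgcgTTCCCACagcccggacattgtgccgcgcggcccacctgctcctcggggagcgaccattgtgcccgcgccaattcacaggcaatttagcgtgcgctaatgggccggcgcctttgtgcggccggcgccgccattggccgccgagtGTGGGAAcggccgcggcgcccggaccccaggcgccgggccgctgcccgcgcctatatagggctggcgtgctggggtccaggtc

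Among other genes of the pathway the motif stood in 6 of 69 promoters (8.7%, against 5.42% of all promoters). These were promoters of Hes7, Hey2, Lfng, Psen2, Rbpjl and Spen. Those of the related repressor genes Hes7 and Hey2 and of Lfng, which encodes a sugar transferase that modifies Notch receptors, are shown as windows of 31 bases because their array values are given below. They lie at chr11:69120261-69120291 on the plus strand, chr10:30842972-30843002 on the minus strand and chr5:140607220-140607250 on the plus strand of GRCm38.p6. A match describes these letters only and does not show that Rbpj binds there in skin.
Hes7: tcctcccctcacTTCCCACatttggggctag
Hey2: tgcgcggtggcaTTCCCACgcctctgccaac
Lfng: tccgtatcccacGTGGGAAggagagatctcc

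The deposited values are log2 intensities made by RMA, which corrects background, forces all arrays to a common distribution and gives a single value per probe set. Groups were compared with limma, a linear model fitted across all probe sets with shared information on their spread, and a gene was called at a Benjamini-Hochberg adjusted p under 0.05 over the 16331 probe sets. Every array had a median of 7.405. The Hoxc13 probe set read 8.95, 8.75 and 9.74 in mutant replicates 1, 2 and 3, against 9.63, 9.81 and 9.83 in wild type replicates 1, 2 and 3. Mutant replicate 3 thus lay inside the wild type range. The difference was -0.61 (limma adjusted p = 0.293), and without mutant replicate 3 it was -0.90 (adjusted p = 0.00114). Where its probes lie relative to the targeted sequence is not known from the labels, and the level is no check of the genotypes. Mutant replicate 3 differed most from its group: across probe sets it correlated at 0.989 and 0.990 with mutant replicates 1 and 2, which correlated with each other at 0.997. Wild type arrays correlated with each other at 0.996 to 0.997. Keratinocyte markers were well represented, with 9 basal genes between 7.60 and 13.27 and 9 suprabasal genes between 9.06 and 14.13 over all arrays. On all arrays the 6 Y-linked probe sets gave values from 2.98 to 4.89 and Xist values from 11.15 to 11.67, which goes against the label male. The Y-linked values serve below to mark how low a probe set can read without its transcript being shown to be present, and no detection calls were available. Values of different probe sets do not rank the genes by abundance, since each probe set has its own affinity.

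No member of the pathway passed the test in mutant skin with all 6 arrays. The differences ran from -0.34 for Heyl to 0.21 for Jag2 on the log2 scale, with 5 members at positive and 5 at negative values and a median of 0.01, against a median of 0.02 over all probe sets. The limma fit called 0 of 10 members, where 2.08% of all probe sets were called. At an unadjusted p under 0.05 there was 1 member, Heyl, where 14.4% of all probe sets had such a p. Values of mutant and wild type arrays did not overlap for 2 members, Jag2 and Heyl, where 20.3% of all probe sets had groups without overlap. All 3 shares of the members were at or below those of all probe sets.

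The receptors are single-pass proteins that act both as sensors at the membrane and, once cut, as transcription cofactors. Notch1, the best studied receptor of keratinocytes, read 10.21, 10.08 and 10.64 in mutant replicates 1, 2 and 3, against 10.42, 10.54 and 10.49 in wild type replicates 1, 2 and 3. Mutant replicates 1 and 2 lay below every wild type array and mutant replicate 3 above all of them, so the mutant range of 0.56 was wider than the wild type range of 0.12. The difference was -0.17 (SE 0.14, 95% interval -0.50 to 0.16), with an adjusted p of 0.631 in limma.

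Notch2, a further receptor of skin cells, read 10.05, 9.99 and 9.89 in mutant replicates 1, 2 and 3, against 9.98, 9.83 and 9.88 in wild type replicates 1, 2 and 3. The groups overlapped, and their ranges were alike at 0.16 in mutant and 0.15 in wild type skin. The difference was 0.08 (95% interval -0.10 to 0.26, limma adjusted p = 0.699). Notch3, the receptor of mural cells that is also found in keratinocytes, read 7.90, 7.71 and 8.07 in mutant replicates 1, 2 and 3, against 7.87, 7.84 and 7.82 in wild type replicates 1, 2 and 3. The wild type arrays lay within 0.04 of each other and inside the mutant range. Its difference was 0.05 (95% interval -0.18 to 0.28, limma adjusted p = 0.855).

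**Figure D1:**
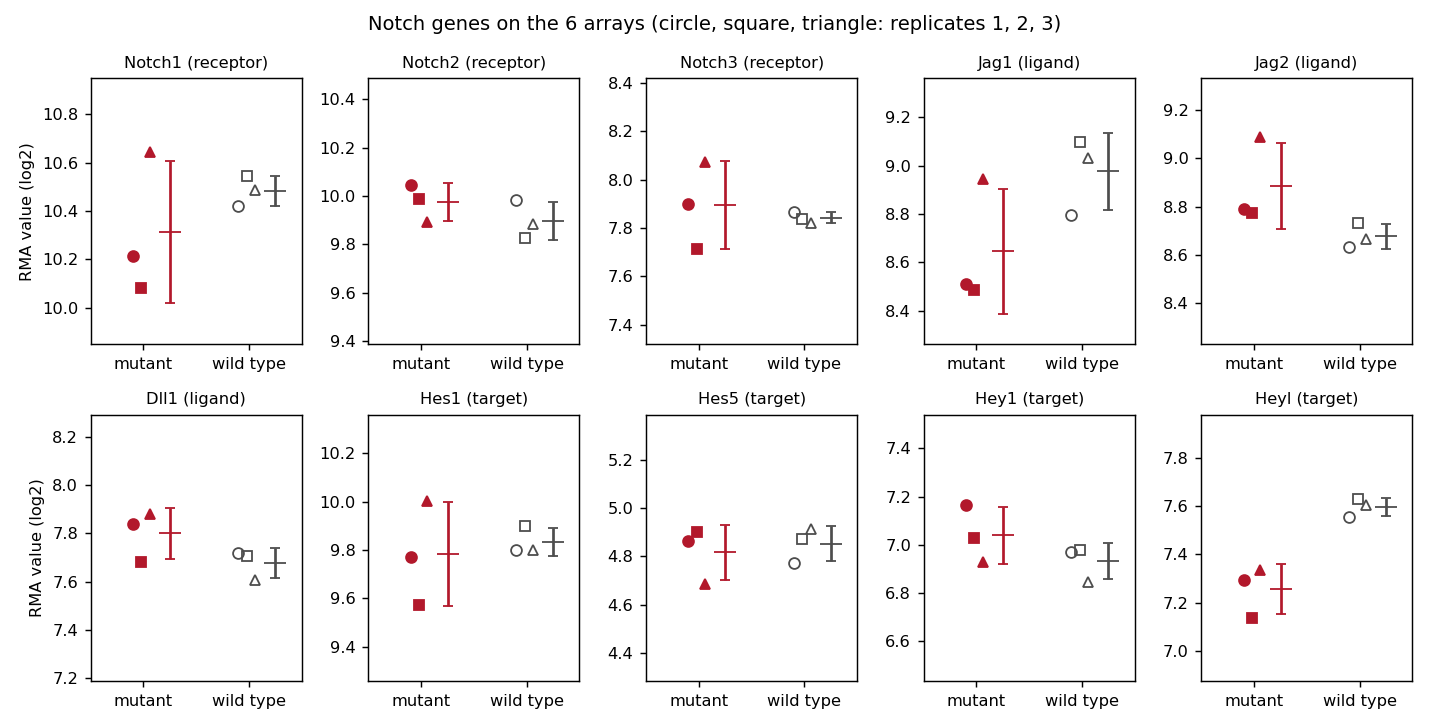
RMA values (log2) of the 10 Notch genes, mutant left of wild type in each panel, with replicates 1, 2 and 3 as circle, square and triangle and the mean ± SD beside them (n = 3 each); every panel spans the same height. Only Jag2 and Heyl have groups without overlap, and the triangle of mutant replicate 3 stands away from the other mutant arrays for Notch1 (10.64 against 10.21 and 10.08) and Jag1 (8.94 against 8.51 and 8.48).

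The ligands are membrane proteins that activate receptors on the neighbouring cell. Jag1, a Jagged ligand of suprabasal epidermis and follicle, read 8.51, 8.48 and 8.94 in mutant replicates 1, 2 and 3, against 8.80, 9.10 and 9.03 in wild type replicates 1, 2 and 3. As for Notch1, mutant replicates 1 and 2 were below every wild type array, while mutant replicate 3 fell inside the wild type range. The means were 8.65 ± 0.26 in mutant and 8.98 ± 0.16 in wild type skin (SD, n = 3 each). The difference of -0.33 (SE 0.14, 95% interval -0.66 to 0.00) did not pass, with an adjusted p of 0.348 in limma.

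Jag2, the other Jagged ligand, read 8.79, 8.77 and 9.09 in mutant replicates 1, 2 and 3, against 8.63, 8.73 and 8.67 in wild type replicates 1, 2 and 3. All mutant arrays were above all wild type arrays, as they were for 12.5% of all probe sets. Mutant replicate 2 exceeded the highest wild type array by little. The difference was 0.21 (SE 0.10, 95% interval -0.03 to 0.44, limma adjusted p = 0.398). Dll1, a Delta-like ligand, read 7.84, 7.68 and 7.88 in mutant replicates 1, 2 and 3, against 7.72, 7.71 and 7.61 in wild type replicates 1, 2 and 3, with overlapping groups. Its difference was 0.12 (95% interval -0.07 to 0.31, limma adjusted p = 0.539).

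The Jagged ligands had differences of opposite sign. Taken within each array, the value of Jag2 minus that of Jag1 was 0.28, 0.29 and 0.15 in mutant replicates 1, 2 and 3, against -0.17, -0.37 and -0.37 in wild type replicates 1, 2 and 3. This balance was above 0 on every mutant array and below 0 on every wild type array, mutant replicate 3 included. It was computed after the values had been seen, for a pair already known to differ in sign. That choice favours groups that separate, and no share over other gene pairs was computed. The balance is given as a description with no test. Its sign is not a ratio of transcript numbers, since the probe sets differ in affinity.

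The targets are basic helix-loop-helix repressors. Heyl had the smallest p of the members. It read 7.30, 7.14 and 7.34 in mutant replicates 1, 2 and 3, against 7.56, 7.63 and 7.60 in wild type replicates 1, 2 and 3. All mutant arrays were below all wild type arrays, as for 7.82% of all probe sets, and mutant replicate 3 lay close to mutant replicate 1. The means were 7.26 ± 0.10 in mutant and 7.60 ± 0.04 in wild type skin (SD, n = 3 each), a mutant level of 0.791 times wild type. The difference of -0.34 (SE 0.08, 95% interval -0.52 to -0.16) had an unadjusted p of 0.00278 and did not pass after adjustment in limma (adjusted p = 0.091).

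Hes1, the most widely expressed Hes gene and a brake on differentiation in suprabasal epidermis, read 9.77, 9.57 and 10.003 in mutant replicates 1, 2 and 3, against 9.80, 9.90 and 9.80 in wild type replicates 1, 2 and 3. Mutant replicate 3 was again the highest of the 6 arrays and the other mutant arrays were below every wild type array. The difference was -0.05 (95% interval -0.31 to 0.21, limma adjusted p = 0.882). Hey1, a relative of Heyl with a known role in vessels, read 7.16, 7.03 and 6.93 in mutant replicates 1, 2 and 3, against 6.97, 6.98 and 6.85 in wild type replicates 1, 2 and 3. The groups overlapped through mutant replicate 3, and the difference was 0.11 (95% interval -0.09 to 0.31, limma adjusted p = 0.617).

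Hes5, whose promoter stretch with 2 motif copies is printed above, read 4.86, 4.90 and 4.68 in mutant replicates 1, 2 and 3, against 4.77, 4.87 and 4.91 in wild type replicates 1, 2 and 3. The groups overlapped, with a difference of -0.04 (95% interval -0.23 to 0.16, limma adjusted p = 0.89). These values overlap those of the Y-linked probe sets, whose upper end of 4.89 came from Usp9y, while the others reached 4.18 at most. Hes5 transcript is therefore not shown to be above background in either group.

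**Figure D2:**
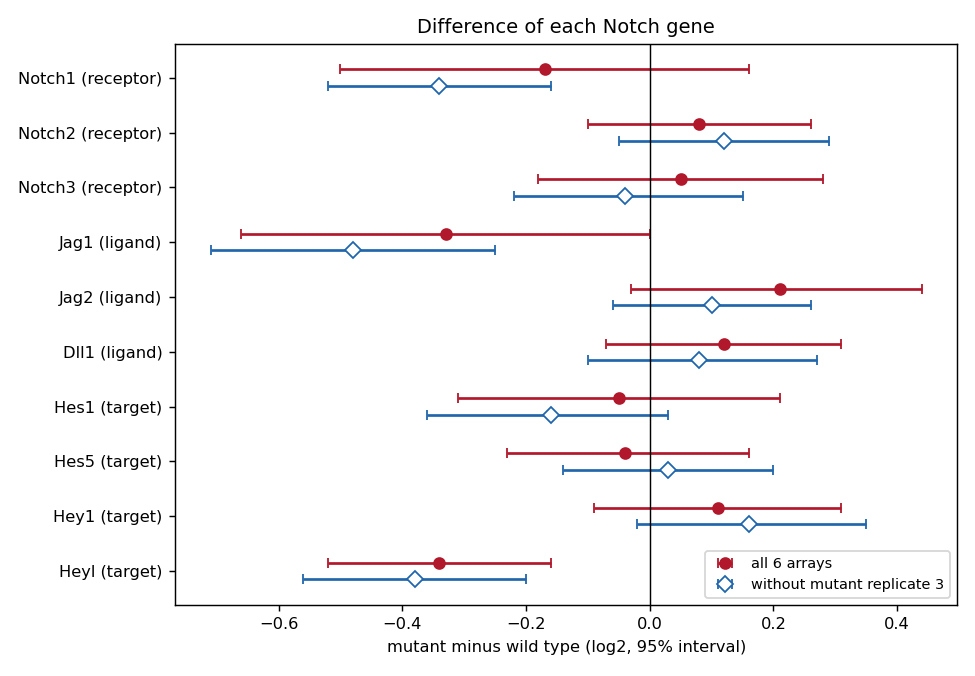
Difference of each Notch gene, mutant minus wild type (log2), with its 95% interval from limma; filled circles use all 6 arrays and open diamonds leave out mutant replicate 3. With all arrays the interval of Heyl alone (-0.52 to -0.16) lies clear of 0, and without mutant replicate 3 those of Notch1 (-0.52 to -0.16) and Jag1 (-0.71 to -0.25) do so too.

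Set side by side by role, the medians of the differences were -0.04 for the 4 targets, 0.05 for the 3 receptors and 0.12 for the 3 ligands. The target median minus that of receptors and ligands together was -0.11. With low probe sets left out, which removes Hes5 and Hey1, the target median was -0.20 and this contrast -0.26. That median rests on 2 targets, Hes1 (-0.05) and Heyl (-0.34). Hey1, the only target with a positive difference (0.11), read above the Y-linked values. With all arrays and probe sets the differences within a role ran from -0.34 to 0.11 among targets, -0.17 to 0.08 among receptors and -0.33 to 0.21 among ligands. A list of 6 genes that are not members, other Hes and Hey genes and Nrarp, had a median of -0.14. Its differences ran from -0.56 to 0.62, with 4 negative and 2 positive. Nrarp is a direct target that feeds back on the receptor's intracellular part. It read between 10.36 and 10.68 in mutant and between 10.44 and 10.58 in wild type skin. The difference of Nrarp was 0.01 (95% interval -0.22 to 0.24, limma adjusted p = 0.985).

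Several of these values turned on mutant replicate 3. It was the highest of the 6 arrays for 5 of 10 members (Notch1, Notch3, Jag2, Dll1 and Hes1), which held for 28.1% of all probe sets. For 3 members (Notch1, Jag1 and Hes1) it was at or above the lowest wild type array while the other mutant arrays were below all wild type arrays, as for 12.7% of all probe sets. Without it, limma called 3 of 10 members, all lower in mutant skin, where 6.23% of all probe sets were called lower and 7.95% higher. Notch1 fell by 0.34 (SE 0.08, adjusted p = 0.0274), Jag1 by 0.48 (SE 0.10, adjusted p = 0.0185) and Heyl by 0.38 (SE 0.08, adjusted p = 0.0174) in that fit. It rests on 2 mutant arrays that resemble each other closely, so its SE may be too small for the spread between mutant samples. Its p-values may then be too low. The difference of Heyl was -0.38 without that array and -0.34 with it, whereas that of Notch1 was -0.34 without it and -0.17 with it.

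Further genes of the pathway were taken from 7 lists by role, of which 56 of 65 genes had a named probe set. Of these, 2 fell and none rose in the limma fit with all arrays, where 1.6% of all probe sets were called lower and 0.478% higher. Their median difference was 0.02, that of all probe sets. All mutant values were above all wild type values for 6 of the 56 genes and below them for 3. Among all probe sets this held for 12.5% and 7.82%, so separated groups were not more frequent among these genes. Tle4, a Groucho corepressor, read 7.20, 7.17 and 7.35 in mutant replicates 1, 2 and 3, against 7.64, 7.68 and 7.72 in wild type replicates 1, 2 and 3. It fell by 0.44 (SE 0.08, adjusted p = 0.0345), with every mutant array below every wild type array. Groucho proteins serve many repressors, so Tle4 is not specific to Notch.

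Hes2, a Hes family member, read 4.67, 4.37 and 4.66 in mutant replicates 1, 2 and 3, against 5.19, 5.04 and 5.15 in wild type replicates 1, 2 and 3. It fell by 0.56 (SE 0.10, adjusted p = 0.0384). Its mutant values are no higher than those of Usp9y, the top Y-linked probe set, and its wild type values are just above them. Neither gene was called when mutant replicate 1 or 2 or any wild type array was dropped.

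None of the other Hes and Hey family genes passed with all arrays. The differences of Hes3, Hes6 and Hes7 were negative and that of Hey2 positive. Hes3 was at -0.22 (limma adjusted p = 0.285) with every mutant array below every wild type array, and Hes6 at -0.05 (adjusted p = 0.82). Hes7, a gene known from somite segmentation, read between 5.88 and 6.57 in mutant and between 6.39 and 6.76 in wild type skin (difference -0.33, limma adjusted p = 0.454). Hey2 read 6.88, 6.53 and 5.26 in mutant replicates 1, 2 and 3, against 5.43, 5.67 and 5.69 in wild type replicates 1, 2 and 3. Mutant replicates 1 and 2 were above every wild type array and mutant replicate 3 below all of them. Its difference of 0.62 (SE 0.37) did not pass (limma adjusted p = 0.487). Without mutant replicate 3, Hey2 was at 1.10 (adjusted p = 0.00158), Hes7 at -0.52 (adjusted p = 0.0339) and Hes3 at -0.29 (adjusted p = 0.0339). Hes7 and Hey2, which share the motif printed above with Hes5, had differences of opposite sign in both fits.

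In each remaining list the gene with the smallest p did not pass. Among genes for receptor glycosylation this was Lfng, at 6.11, 6.12 and 6.36 in mutant replicates 1, 2 and 3, against 5.87, 5.95 and 5.76 in wild type replicates 1, 2 and 3. Its groups did not overlap, and its difference was 0.34 (SE 0.09, 95% interval 0.12 to 0.56, limma adjusted p = 0.155). Rbpj, the DNA-binding partner of the cut receptor, read 9.50, 9.62 and 9.41 in mutant replicates 1, 2 and 3, against 9.28, 9.34 and 9.33 in wild type replicates 1, 2 and 3, with a difference of 0.19 (limma adjusted p = 0.32). Rbpj had the smallest p of the nuclear complex, and all its mutant values were above all its wild type values.

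Numb, an adaptor that removes Notch from the membrane, was at -0.41 (SE 0.18, limma adjusted p = 0.344) and had the smallest p among 14 turnover genes. Aph1a, a gamma-secretase subunit, was at 0.18 (adjusted p = 0.356) and led the 7 cleavage genes. Dlk1, a ligand-like protein without the usual Delta domain, was at 0.61 (SE 0.35, adjusted p = 0.467) and led the 6 other receptors and ligands. Without mutant replicate 3, 8 of the 56 genes were called lower and 3 higher, against 6.23% and 7.95% of all probe sets. Numb, with an adjusted p of 0.00626, and Dlk1, with 0.0185, were among them, as were Tle4 and Hes2.

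**Figure D3:**
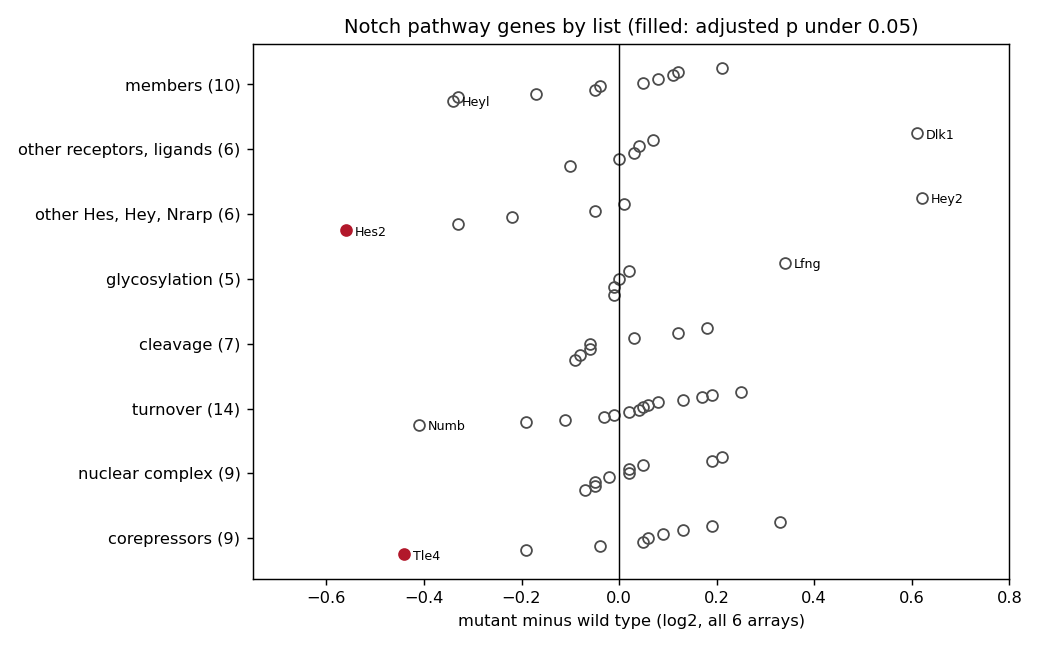
Difference of each measured Notch pathway gene, mutant minus wild type (log2, all 6 arrays), with the number of genes per list in brackets; each circle is a gene and filled circles have a limma adjusted p under 0.05. Hes2 (-0.56) and Tle4 (-0.44) are the filled circles, and no member is filled.

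Markers of the cell types that carry Notch genes moved between the arrays as well. The mean of 9 inner root sheath genes was 11.87, 11.92 and 12.23 in mutant replicates 1, 2 and 3, against 12.48 to 12.58 in wild type skin. In this list Krt26 fell by 1.90, Krt72 fell by 2.20 and no gene was called higher. The median difference of the list was -0.11, and the other genes of it did not pass, with Tchh at -0.25, Krt25 at -0.01 and Gata3 at 0.07. The mean of 9 hair matrix and precortex genes was 8.08, 8.04 and 8.41 in mutant replicates 1, 2 and 3. In wild type skin it was 8.52 to 8.55. Foxn1 (-1.21) and Elf5 (-1.32) were called lower and no gene higher. At an unadjusted p under 0.05 in limma there were 6 genes, against 14.4% of all probe sets. The list held 7 negative and 2 positive differences, the latter Shh at 0.55 (limma unadjusted p = 0.00566) and Msx1 at 0.26. Shh was thus among the 6. The inner root sheath and hair matrix means were lower on every mutant array than on any wild type array. All 10 measured hair shaft keratins fell, and their mean was 5.51 to 6.04 in mutant and 11.36 to 11.69 in wild type skin.

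Vessel and muscle markers had higher or overlapping means. Their counts at an unadjusted p under 0.05, and those of the further lists, are to be read against the 14.4% of all probe sets with such a p. The mean of 13 mural cell genes was 8.93 to 9.10 in mutant and 8.72 to 8.91 in wild type skin, with 0 genes called by limma and 6 at an unadjusted p under 0.05. The mean of 16 endothelial genes overlapped, at 7.51 to 7.76 in mutant and 7.45 to 7.67 in wild type skin, and limma called 0, with 2 at an unadjusted p under 0.05. The mean of 15 skeletal muscle genes was 9.91 to 10.81 in mutant and 9.25 to 10.27 in wild type skin, with Myh2 alone called, higher, and 8 genes at an unadjusted p under 0.05.

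Among keratinocytes, the mean of 9 basal genes was 10.45 to 10.68 in mutant and 10.24 to 10.38 in wild type skin, with Lamb3 called higher and 4 at an unadjusted p under 0.05. That of 9 suprabasal genes overlapped, at 11.998 to 12.13 in mutant and 12.06 to 12.10 in wild type skin. Ivl was called lower (-0.74), and 3 genes had an unadjusted p under 0.05. The others of these 3, Sbsn (0.21) and Dsg1a (0.24), were higher, and 7 of the 9 differences were positive. The mean of 12 dermal papilla genes was 8.26, 8.19 and 7.84 in mutant replicates 1, 2 and 3, against 7.86 to 7.91 in wild type skin, and limma called 0, with 6 at an unadjusted p under 0.05. That of 10 melanocyte genes was 9.07, 8.97 and 9.55 in mutant replicates 1, 2 and 3, against 9.46 to 9.63 in wild type skin, with Gpr143 called lower and 4 at an unadjusted p under 0.05. In both lists mutant replicate 3 lay near or inside the wild type range. Limma called 0 of 9 fibroblast, 6 adipocyte and 9 leukocyte genes, with 2, 1 and 2 at an unadjusted p under 0.05. The leukocyte mean was 8.23 to 8.43 in mutant and 8.12 to 8.14 in wild type skin, and the fibroblast and adipocyte means overlapped.

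Leaving out mutant replicate 3, a setting added for the markers after the values were seen, gave more called markers in most lists, as it did among all probe sets (14.2% called, 6.23% lower and 7.95% higher). In that fit limma called 4 of 9 inner root sheath genes lower. Of 9 hair matrix genes 6 were lower and 1 higher, and 7 of 10 melanocyte genes were lower. Of 12 dermal papilla genes 7 were higher and 2 lower, and 8 of 15 muscle genes were higher. Among vessel markers 3 of 16 endothelial and 2 of 13 mural genes were higher. Of 9 basal keratinocyte genes 3 were higher, and of 9 suprabasal genes 1 was lower. Of 9 fibroblast genes 3 were higher, of 6 adipocyte genes 3 were higher, and of 9 leukocyte genes 3 were higher and 2 lower. All 10 hair shaft keratins were again lower. The part of these cell types in the Notch values was not tested.

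**Figure D4:**
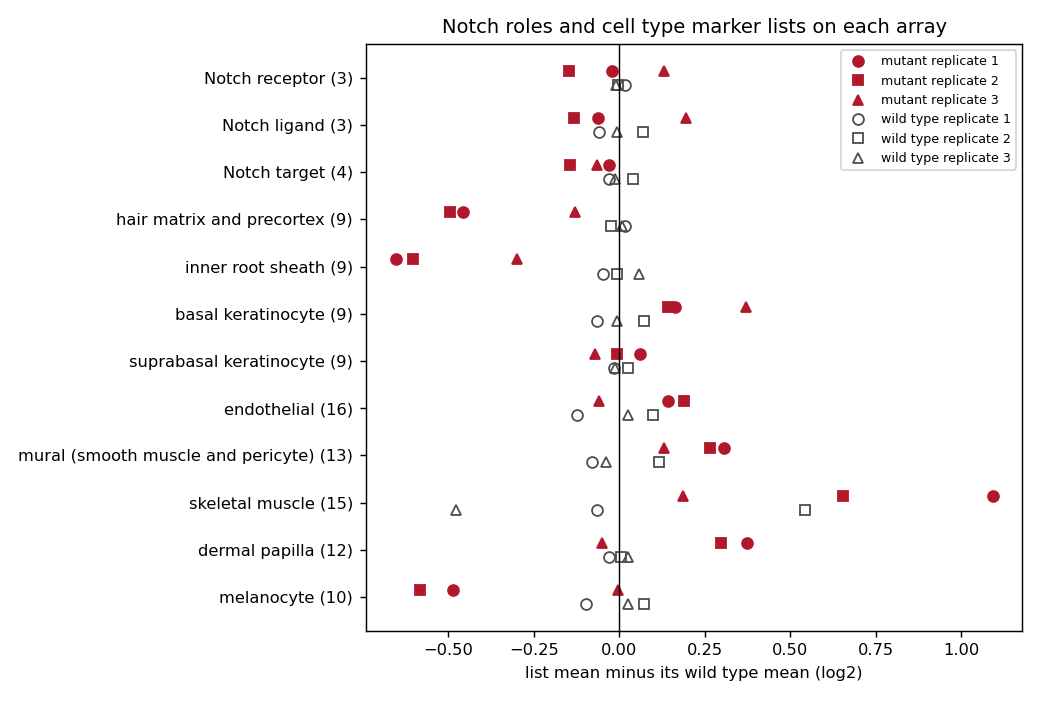
Mean of each list on each array minus its wild type mean (log2), with mutant arrays filled above wild type arrays open, and replicates 1, 2 and 3 as circle, square and triangle; the number of genes is in brackets. The means of Notch receptors and ligands straddle 0 among mutant arrays. Target means lie just below it and barely separate, from list means of 7.16 to 7.274 in mutant and 7.275 to 7.345 in wild type skin. Inner root sheath and hair matrix means are lower on every mutant array than on any wild type array, melanocyte means on mutant replicates 1 and 2 only. Hair shaft keratins are left out because of their size, and the fibroblast, adipocyte and leukocyte lists are not shown.

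The genes with profiles closest to the member with the widest range in each role were sought among 7872 named probe sets of above-median level, as the root mean square difference of centred values over the 6 arrays. Closest to Notch1 were Aldh4a1 (0.0225), an enzyme of proline breakdown, Nipal2 (0.0287) and Ppl (0.0318), the cornified envelope protein periplakin. Closest to Jag1 were Wapl (0.0246), a cohesin release factor, Cyp17a1 (0.0314), a steroid hydroxylase, and Map7 (0.0574), a microtubule-binding protein. Closest to Heyl were Epb41l4a (0.0337), Rcsd1 (0.0441) and Tex2 (0.047). None of these 9 genes passed the limma test, with adjusted p-values from 0.06 for Tex2 to 0.657 for Nipal2. They were picked for values close to those of members that did not pass, so this outcome largely follows from the choice. With so few arrays many probe sets share a profile, and likeness here includes the shift of mutant replicate 3.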

How the data were processed

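The log2 values are as deposited by the authors, who used RMA (per the submitters' processing notes, which state no version). Per the labels' protocols, total RNA was amplified from an oligo(dT) primer before labelling, so 3′ ends are read. RMA compresses differences near background and hides a change in total RNA. The table held 16395 probe sets, of which 64 controls were left out. The array annotation named 15644, none with several genes and 1 probe set per gene, and 687 stay unnamed here. Probe set identifiers are Entrez gene numbers.

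Samples were grouped by title. The design text calls them independent. What that covers is not stated, so p-values reflect only how these samples vary. limma 3.58.1 in R 4.3.3 (lmFit, eBayes, two-sided, no filter, no block) was fitted to all probe sets, and tested on simulated data. Prior degrees of freedom were 3.53, and the SE had a median of 0.0914. The number of arrays limits the precision. Tables and figures used pandas 2.3.3 and matplotlib 3.10.9 in Python 3.11.15.

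The members and lists were chosen with earlier results of these data known. Named were all members, Hoxc13, called genes and the smallest p of each pathway list, up to 3 called markers per list, and the 3 closest profiles. Nrarp, Hes3, Hes6, Hes7, Hey2, Tchh, Krt25, Gata3, Shh, Msx1, Sbsn and Dsg1a were added after values were seen. Alternatives were a low-level filter, repeated quantile normalisation, median centring, a trend with robust prior, no moderation, array weights, a replicate block and leaving out each array.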

Additional observations from a re-analysis of the deposited data

How the results depend on the processing

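Leaving out 1 array at a time gave 151 to 2316 called probe sets, 0 to 3 called Notch members and 0 to 11 called other pathway genes. The upper end of each range came without mutant replicate 3. Over these fits Notch1 ran from -0.34 to -0.06, Jag1 from -0.48 to -0.25, Heyl from -0.38 to -0.28, Jag2 from 0.10 to 0.26, Notch3 from -0.04 to 0.14, Hes1 from -0.16 to 0.05 and Hes5 from -0.08 to 0.03. The role medians ran from -0.04 to 0.07 for receptors, 0.08 to 0.18 for ligands and -0.07 to -0.01 for targets, and the target median minus the others from -0.17 to -0.07.

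Array weights gave mutant replicate 3 a weight of 0.234 and called 1880 of 16331 probe sets, 1041 higher and 839 lower. They called 2 members, both lower, Jag1 (-0.44, limma adjusted p = 0.0312) and Heyl (-0.37, adjusted p = 0.0154). With these came 7 other pathway genes of 56, 3 higher and 4 lower. Notch3 turned to -0.01 and Hes5 to 0.01. The weights count mutant replicate 3 little, so SE and p-values may be too low, as in the fit without it. The calls of Jag1 and Heyl are thus not independent of that fit. No moderation gave 84 probe sets and 0 other pathway genes. The replicate block gave 197 probe sets, 0 members and 0 other pathway genes. Deviations of same-numbered arrays correlated at 0.036, -0.119 and -0.0873. Wild type replicates 1, 2 and 3 correlated best with mutant replicates 3, 1 and 2. Deviations from the mean of only 3 arrays are tied to each other, so these values cannot decide whether the arrays were paired. Leaving out low probe sets removed the members Hes5 and Hey1 and left 37 of 56 other pathway genes. Hes2, Hes3, Hes6, Hes7, Hey2 and Lfng were among those removed. Of the 37, 1 was called (Tle4). The target median moved to -0.20 and its contrast to -0.26, with only 2 targets left, Hes1 and Heyl. Quantile normalisation, centring and the trend moved none of these values past its limit. The cause of the other changes was not tested. Values near those of Y-linked probe sets (Hes5, Hes2) are limited by background.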
